A study of Mus musculus with 6 samples.

Results

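The genes described here make, transport, degrade or sense acetylcholine in cells of the Atoh1 lineage. They are Chat, Slc18a3, Slc5a7 and Ache, and the nicotinic receptor subunits Chrna3, Chrna4, Chrna5, Chrna7, Chrnb2 and Chrnb4. All probe sets that the platform annotation assigns to 1 of these 10 symbols alone were taken, which gave 19 of the 45101 probe sets on the array, for 10 of 18194 annotated genes. The study used Swiss Webster mouse embryos with the genotype Atoh1-CreER and an EGFP reporter (RCE), from Atoh1-CreER males and RCE homozygous females. Tamoxifen was given to the pregnant dam by gavage (4 mg per 35 g) either at E13.5 (the late group, 3 samples) or at E10.5 (the early group, 3 samples). It switches on EGFP permanently in cells that express Atoh1, the proneural factor of the rhombic lip, around the time of dosing. In both groups the region of rhombomere 1 and the isthmus was dissected at E14.5, and EGFP-positive cells were sorted, and their RNA was measured on Affymetrix 430_2 mouse arrays, 1 array per sample. Labelling day and the interval between labelling and collection therefore differed together. Whether samples of a group came from separate litters is not stated in the labels. The p-values below therefore cover the spread between these samples alone, and part of that spread may be technical.

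Choline acetyltransferase (Chat) synthesises acetylcholine, the vesicular transporter encoded by Slc18a3 loads it into synaptic vesicles, acetylcholinesterase (Ache) hydrolyses it in the extracellular space, and the high-affinity transporter encoded by Slc5a7 takes the freed choline back into the terminal. Nicotinic receptors are pentameric cation channels opened by acetylcholine: Chrna4 and Chrnb2 subunits form the main heteromeric receptor of the brain, Chrna7 forms homomeric receptors with high calcium permeability, and Chrna3, Chrnb4 and Chrna5 form the receptors of autonomic ganglia and of the habenula and its target, the interpeduncular nucleus. Cholinergic neurons of the pedunculopontine and laterodorsal tegmental nuclei lie in the brainstem region that borders the isthmus.

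In the RefSeq annotation (GRCm38.p6), Chrna5, Chrna3 and Chrnb4 are neighbours on chromosome 9 with 0 other coding genes between them. Chrna5 and Chrna3 overlap there at their 3′ ends on opposite strands, and the strand read by each probe set was not checked. Slc18a3 lies within Chat on chromosome 14. The promoter table from RefSeq held entries for all 10 genes. The 250 bases before the annotated start are shown for the genes with a difference or a large gap between the groups described below, and for Chrna3 because it neighbours Chrnb4. Those with higher mean signals in the late group are Chrnb4 at chr9:55048545-55048794 (minus strand) and Chrna3 at chr9:55026563-55026812 (minus strand). Those with higher mean signals in the early group are Chrnb2 at chr3:89764633-89764882 (minus strand), Chrna4 at chr2:181039178-181039427 (minus strand), Chrna7 at chr7:63212527-63212776 (minus strand) and Ache at chr5:137288004-137288253 (plus strand). Capitals mark CAGCTG, an E-box form to which proneural basic helix-loop-helix dimers can bind, and GGGCGG or its complement, the GC box to which Sp factors can bind.
Chrnb4: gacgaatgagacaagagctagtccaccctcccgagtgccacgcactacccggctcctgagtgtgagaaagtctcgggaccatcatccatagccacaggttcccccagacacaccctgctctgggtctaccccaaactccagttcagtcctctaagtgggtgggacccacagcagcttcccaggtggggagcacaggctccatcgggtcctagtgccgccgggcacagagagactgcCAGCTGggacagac
Chrna3: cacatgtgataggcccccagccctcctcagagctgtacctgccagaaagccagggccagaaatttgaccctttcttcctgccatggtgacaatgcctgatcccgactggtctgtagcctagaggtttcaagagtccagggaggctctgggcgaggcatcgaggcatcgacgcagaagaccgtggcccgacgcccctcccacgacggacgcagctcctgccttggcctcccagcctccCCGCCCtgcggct
Chrnb2: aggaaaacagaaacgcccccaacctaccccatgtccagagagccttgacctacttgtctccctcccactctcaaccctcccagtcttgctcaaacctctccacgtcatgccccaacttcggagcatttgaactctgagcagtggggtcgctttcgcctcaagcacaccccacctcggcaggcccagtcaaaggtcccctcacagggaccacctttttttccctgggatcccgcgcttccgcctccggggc
Chrna4: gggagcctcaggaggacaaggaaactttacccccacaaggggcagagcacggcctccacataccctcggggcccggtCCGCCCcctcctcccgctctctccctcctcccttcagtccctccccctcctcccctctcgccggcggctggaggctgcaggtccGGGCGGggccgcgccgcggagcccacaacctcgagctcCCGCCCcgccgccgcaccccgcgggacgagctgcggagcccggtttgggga
Chrna7: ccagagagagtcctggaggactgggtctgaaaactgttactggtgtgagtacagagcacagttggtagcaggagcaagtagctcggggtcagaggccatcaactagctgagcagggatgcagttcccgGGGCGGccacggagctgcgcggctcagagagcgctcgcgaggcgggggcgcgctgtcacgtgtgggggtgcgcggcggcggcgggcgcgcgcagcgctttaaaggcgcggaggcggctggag
Ache: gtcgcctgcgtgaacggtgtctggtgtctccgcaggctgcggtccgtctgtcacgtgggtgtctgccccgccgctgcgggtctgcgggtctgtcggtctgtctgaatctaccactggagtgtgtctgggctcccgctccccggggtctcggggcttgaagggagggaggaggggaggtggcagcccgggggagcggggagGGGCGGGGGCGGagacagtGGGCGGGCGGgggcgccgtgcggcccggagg

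Among these 6 windows, searched on both strands, CAGCTG was found only in that of Chrnb4, with its first base 14 bases before the start; the motif reads the same on either strand. Among the members whose windows are not shown, Chat also held CAGCTG, with its first base 150 bases before the start. CAGCTG was present in 13% of the 32851 promoter windows of the same length. GGGCGG was found 4 times in the window of Ache, 3 times in that of Chrna4, and 1 time each in those of Chrna7 and Chrna3, against 32.7% of all windows with at least 1 match. The windows of Chrnb2 and Chrnb4 held no GGGCGG. The looser form CANNTG, which includes CAGCTG, was found in 66.2% of all windows and in 5 of these 6, the window of Chrna4 being the exception. These matches describe the letters in the windows, and binding was not measured.

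Before the members' values, some properties of the arrays bear on them. Array medians were 97.7, 112 and 100.1 units in the late group and 112, 100.1 and 111 units in the early group, and these medians are used below as the mark between brighter and dimmer probe sets. The early arrays spread more: the median SD over the log2 signals of tested probe sets was 0.21 for late and 0.39 for early arrays. RNA quality, read from how far the Actb control signal leaned to the 3′ end (3′ over 5′ probe set), was 16.1, 15.0 and 12.9 in the late arrays and 17.4, 19.4 and 26.2 in the early arrays, so the groups did not overlap in it. The same ratio for Gapdh was 12.1, 9.47 and 11.1 in the late arrays and 10.6, 12.5 and 13.2 in the early arrays, where the groups overlapped. The part of RNA quality in the differences below was not tested. Sex-linked signals set 1 array of each group apart. Eif2s3y (1417210_at), a Y-linked gene, stood at 14.1 units in late replicate 3, against 826 or more in the other arrays. Xist (1427262_at) stood at 166 units in early replicate 3, against 8141 or more in the other arrays. The samples of a group were thus not all taken from the same pool of embryos. Microglial markers summed to 308 to 437 units in the late arrays and 498 to 1219 units in the early arrays. Of these markers only Csf1r, a microglial receptor, passed, with means of 136 units (late) and 510 units (early). C1qb did not pass (limma adjusted p = 0.144). Aif1, C1qa, Cx3cr1 and Tyrobp were not tested, and their groups overlapped. The part of microglia in the differences below was not tested. The sums of endothelial, mesenchymal, noradrenergic and serotonergic markers overlapped between the groups. Atoh1, which the labelling selected for, was at 9733, 6819 and 9372 units in the late and 936, 397 and 738 units in the early arrays, and Slc17a6, the vesicular glutamate transporter of this lineage, at 1292, 1366 and 1575 units in the late and 4684, 5225 and 5461 units in the early arrays.

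The genes that define a cholinergic neuron gave dim signals in both groups. Chat, Slc18a3 and Slc5a7, each represented by 1 probe set, lay below the median of every array. Chat (1440070_at) stood at 6.79, 31.4 and 17.7 units in the late and 88.3, 31.0 and 60.9 units in the early arrays, and the groups overlapped. Slc18a3 (1422203_at) stood at 33.0, 18.8 and 13.05 units in the late and 40.2, 49.8 and 69.5 units in the early arrays. All early values of Slc18a3 lay above all late ones. Groups did not overlap, in either direction, in 31.7% of all probe sets, tested or not. Slc5a7 (1421428_at) stood at 38.4, 77.0 and 24.9 units in the late and 45.6, 18.1 and 67.7 units in the early arrays, with the groups fully mixed. None of the 3 entered the test, which needed a signal above the array median in at least 3 of the 6 arrays. Without that filter limma gave adjusted p = 0.195 for Chat, 0.14 for Slc18a3 and 0.93 for Slc5a7. In sorted bulk samples, fewer cells of a type and less RNA per cell cannot be told apart, and at these signals MAS5 values vary strongly on the log scale.

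Ache had the widest gap of these 4 genes. Its probe set (1422635_at) stood at 4.86, 6.72 and 13.49 units in the late and 70.3, 203 and 187 units in the early arrays. The late signals lay between percentiles 9.10 and 17.2 of their arrays, while 2 of the 3 early arrays lay above their median. Because only 2 arrays lay above the median, Ache was not tested. With the filter set at 2 arrays, a choice made after its values were seen, the difference was -4.19 ± 0.55 on the log2 scale (SE; late minus early, limma adjusted p = 0.00543, n = 3 in each group), and without a filter it also passed (adjusted p = 0.0216). Both sizes rest on late signals near the bottom of the scale. At 2 arrays Ache entered only through early arrays, so that call is in part built into the filter. With a floor at the array median, to which lower signals were raised, the early group was 1.57-fold higher and the call was lost (adjusted p = 0.143). Without a filter and without 1 array, the adjusted p was 0.0903, 0.0841 and 0.076 without late replicates 1, 2 and 3, and 0.0345, 0.0568 and 0.0601 without early replicates 1, 2 and 3. Acetylcholinesterase is also known from red blood cells. Of 6 red blood cell markers 5 had a probe set, 4 of these (Alas2, Hba-x, Hbb-bh1 and Slc4a1) were below the median of all arrays, and none passed the test. Their summed signal ranged from 338 to 441 units in the late and from 70.9 to 4769 units in the early arrays. The high sum came from Hbb-y, an embryonic globin, at 4657 units in early replicate 3 against 13.01 and 4.11 units in the other early arrays. The part of red blood cells in the Ache gap was not tested.

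**Figure D1:**
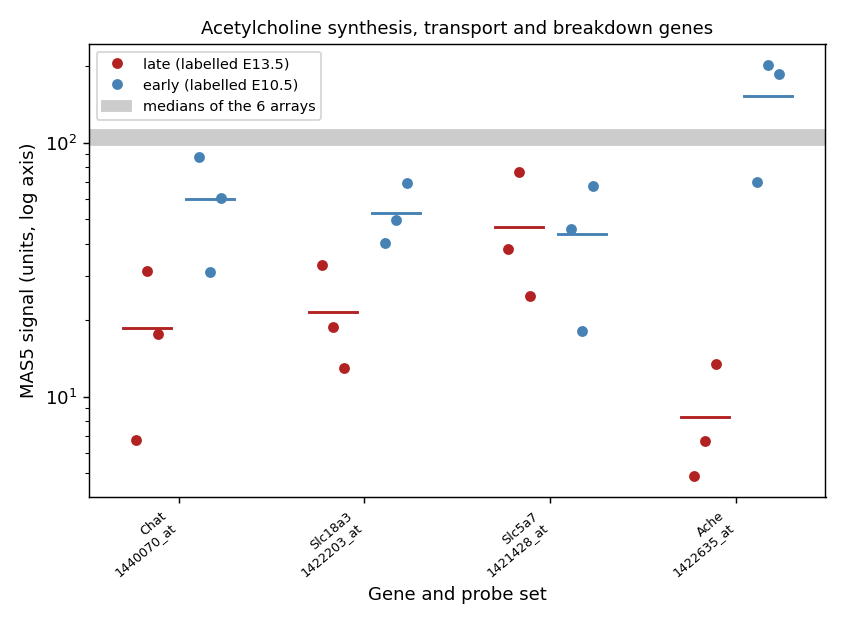
MAS5 signals (units, log axis) of the probe sets of Chat, Slc18a3, Slc5a7 and Ache in each array, late group left and early group right, with lines at the group means and a grey band over the range of the 6 array medians. Chat, Slc18a3 and Slc5a7 lie below the band in all arrays, and only Ache in 2 early arrays (203 and 187 units) lies above it.

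Signals of the receptor subunits were split between the groups. Of the 15 nicotinic probe sets, 7 were tested, for Chrna3, Chrna4, Chrna7, Chrnb2 and Chrnb4. Chrnb4 was higher in the late group, and Chrnb2, Chrna4 and Chrna7 were higher in the early group. Thus 4 member probe sets passed an adjusted p of 0.05, 1 toward the late and 3 toward the early group, against a background of 26.0% of 23471 tested probe sets in either direction, 12.55% toward the late and 13.45% toward the early group. Over the 7 tested member probe sets the median difference was 0.73 on the log2 scale, and over all tested probe sets 0.09. Chrna3 supplied 3 of the 7, and the median is the value of its probe set 1455931_at, which did not pass. Chrna4 passed the filter only through the early arrays, and Chrnb4 through the late arrays and 1 early array, so their calls are in part built into the choice of what was tested.

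Chrnb2, the beta subunit that pairs with Chrna4 in brain receptors, had its brighter probe set (1436428_at) above the median of all arrays. It stood at 652, 734 and 1007 units in the late and 1154, 1560 and 1644 units in the early arrays, with means of 798 ± 186 units for late and 1453 ± 262 units for early arrays (SD, n = 3 each). Every early array lay above every late array. Groups that did not overlap, in either direction, were found in 46.9% of tested probe sets. The difference was -0.87 ± 0.25 on the log2 scale (SE, late minus early), which corresponds to 1.83-fold higher signal in the early group (limma adjusted p = 0.0481). This value lay close to the threshold. Leaving out late replicate 1, 2 or 3 (adjusted p = 0.153, 0.144 and 0.0632) or early replicate 2 or 3 (0.0924 and 0.103) ended the call, as did the removal of late replicate 3 and early replicate 3 together (0.121), centring on the array median (0.0767), array weights (0.106), no filter (0.159) or a filter at 2 arrays (0.0554). The direction was the same in all of them. The other Chrnb2 probe sets (1420744_at and 1441837_at) lay below the median of every array, with means of 86.9 and 4.74 units for late and 86.4 and 26.7 units for early arrays, and were not tested.

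Chrna4, the alpha partner of Chrnb2, had 3 probe sets. The brightest (1456354_at) stood at 63.2, 68.6 and 73.0 units in the late and 247, 122 and 181 units in the early arrays. All late arrays lay below and all early arrays above their array's median. The difference was -1.37 ± 0.28 (SE, log2), or 2.59-fold higher in the early group (limma adjusted p = 0.0181), and 1.71-fold with late signals raised to the array median, where the call was lost (adjusted p = 0.0655). It was also lost without late replicate 1, 2 or 3 (0.0702, 0.0637 and 0.0623), without late replicate 3 and early replicate 3 (0.124), without a filter (0.0746) and in eBayes with trend and robust settings (0.0598). A second probe set (1421203_at) likewise had every early value (154, 169 and 98.7 units) above every late value (46.8, 82.8 and 72.8 units). It lay above the median in only 2 arrays, both early. With the filter at 2 arrays it gave -1.06 ± 0.32 (limma adjusted p = 0.0615). The dimmest (1421202_at) lay below the median of all arrays, with overlapping values around means of 43.6 units (late) and 22.7 units (early).

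Chrna7, the subunit of homomeric receptors, gave close values within each group. Its brighter probe set (1440681_at) stood at 254, 225 and 218 units in the late and 366, 401 and 360 units in the early arrays, all above their medians, with the lowest early array well above the highest late array. The means were 233 ± 19.4 units for late and 376 ± 22.1 units for early arrays (SD, n = 3 each), a difference of -0.69 ± 0.17 on the log2 scale and 1.62-fold higher signal in the early group (limma adjusted p = 0.0298). Leaving out late replicate 1, 2 or 3 (adjusted p = 0.0723, 0.109 and 0.122) or early replicate 2 (0.0523) ended the call, as did leaving out late replicate 3 and early replicate 3 (0.168), centring on the array median (0.0727), no filter (0.144) and eBayes with trend and robust settings (0.074). The second probe set (1450299_at) lay below every array median, at 25.6 to 55.4 units in the late and 11.7 to 39.8 units in the early arrays.

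Of 5 listed markers of GABAergic neurons 3 had a probe set and all 3 were tested. Gad1 and Gad2, the enzymes of GABA synthesis, were higher in the early group, as were these 3 subunits. Slc32a1, the vesicular GABA transporter, did not pass (limma adjusted p = 0.194), at 17.7, 113 and 64.8 units in the late and 570, 105 and 99.5 units in the early arrays, with overlapping groups. The summed signal of the 3 markers ranged from 252 to 394 units in the late and from 573 to 1486 units in the early arrays. Its part in the subunit differences was not tested.

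Chrnb4, a beta subunit of ganglionic and habenular receptors, was the only tested member that passed toward the late group. Its brighter probe set (1457008_at) stood at 495, 325 and 268 units in the late and 5.52, 13.8 and 136 units in the early arrays. Every late array lay above every early array, yet early replicate 3 stood apart from the other early arrays. The means were 363 ± 118 units for late and 51.9 ± 73.3 units for early arrays (SD, n = 3 each), and the log2 SD was 0.45 for late and 2.38 for early arrays. The difference of 4.01 ± 1.13 on the log2 scale, a 16.1-fold ratio (limma adjusted p = 0.0458), depended on how low signals were treated: with the floor at the array median, the late group was 3.05-fold higher (adjusted p = 0.00356). Without early replicate 3 it was 5.33 (adjusted p = 0.00526). The call was lost without late replicate 1, 2 or 3 (adjusted p = 0.137, 0.116 and 0.112) or early replicate 1 or 2 (0.0834 and 0.101), without a filter (0.122) and with the filter at 2 arrays (0.0529). The second probe set (1425849_at) lay below every array median, at 50.1, 21.9 and 66.0 units in the late and 3.54, 3.81 and 83.0 units in the early arrays. It too had its highest early value in early replicate 3, and its groups overlapped.

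Chrna3, the alpha partner of Chrnb4 and its neighbour in the genome, had 3 tested probe sets with higher means in the late group, none of which passed. The brightest (1452010_at) stood at 869, 808 and 670 units in the late and 629, 147 and 350 units in the early arrays. All late values of this probe set lay above all early values, with early replicate 1 close to late replicate 3. The difference was 1.29 ± 0.52 on the log2 scale (limma adjusted p = 0.12), with a 95% interval from 0.03 to 2.54 that is not adjusted for the number of probe sets. It passed when early replicate 1 was left out (1.78, adjusted p = 0.0351). The probe set 1444368_at stood at 392, 476 and 273 units in the late and 277, 25.3 and 126 units in the early arrays, so early replicate 1 lay just above the lowest late array. Its difference was 1.95 ± 0.85 (adjusted p = 0.143), and it passed without early replicate 1 (2.72, adjusted p = 0.0495) and with the floor at the array median (1.29, adjusted p = 0.0426). The third probe set (1455931_at) showed another order, at 583, 348 and 403 units in the late and 107, 416 and 405 units in the early arrays. There early replicate 1 was the lowest array and the groups overlapped (0.73 ± 0.57, adjusted p = 0.385).

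Chrna5, an accessory subunit that joins receptors with Chrna3 and Chrnb4 and the third gene of that cluster, stayed near or below the array medians. Its brighter probe set (1442035_at) stood at 67.9, 161 and 114 units in the late and 99.4, 97.7 and 20.8 units in the early arrays, above the median only in 2 late arrays, with overlapping groups. With the filter at 2 arrays it gave 0.88 ± 0.69 (limma adjusted p = 0.399). The second (1427401_at) was at 74.6, 59.4 and 37.0 units in the late and 1.35, 68.4 and 16.8 units in the early arrays, all below the medians. The mean signal was thus higher in the late group for all 7 probe sets of the 3 neighbouring genes, 3 of them of Chrna3. Only Chrnb4 1457008_at passed, and apart from it and Chrna3 1452010_at the groups overlapped. The share of all probe sets with a higher late mean was not counted, so the 7 are not read as a set. Markers of neural crest and sensory ganglia, sites of these subunits outside the brain, had a summed signal of 359 to 431 units in the late and 209 to 289 units in the early arrays. Of the 6 listed markers 3 had a probe set. Pou4f1, a POU factor of sensory and habenular neurons, was higher in the late group (190, 291 and 275 units against 55.0, 130 and 89.7 units in the early arrays, limma adjusted p = 0.0273), Avil was below the median of all arrays, and Sox10 did not pass. Mean signals of Sox10 (117 late, 130 early) and Avil (22.0 late, 23.2 early) were slightly higher in the early group, with overlapping groups. The higher late sum thus came from Pou4f1. The part of these markers in the Chrnb4 difference was not tested.

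**Figure D2:**
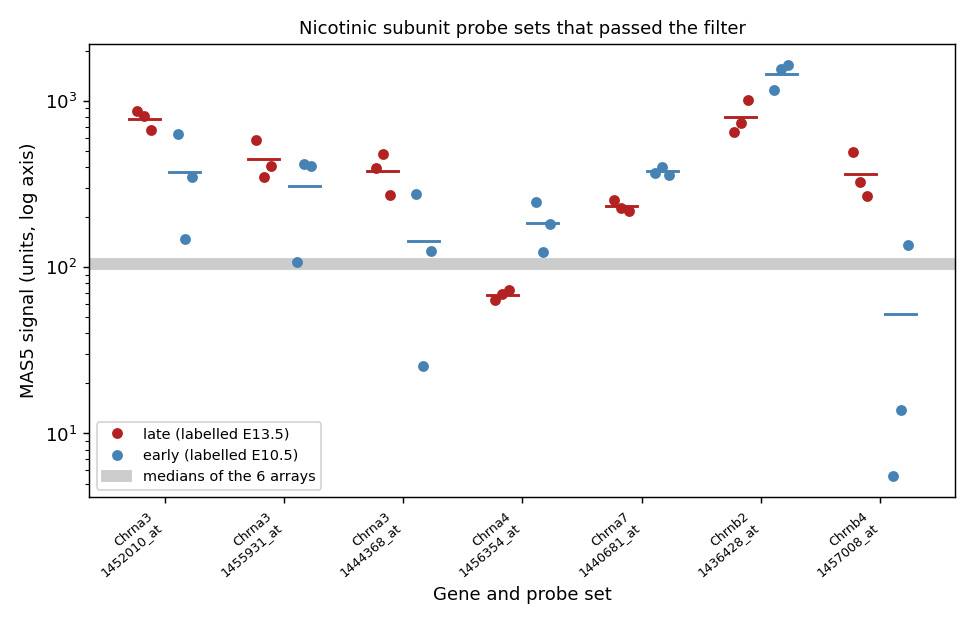
MAS5 signals (units, log axis) of the 7 tested nicotinic probe sets in each array, late group left and early group right, with lines at the group means and a grey band over the range of the 6 array medians. Chrna4, Chrna7 and Chrnb2 lie higher in the early group, Chrnb4 lies higher in the late group with early replicate 3 at 136 units, and the early values of Chrna3 spread widely.

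**Figure D3:**
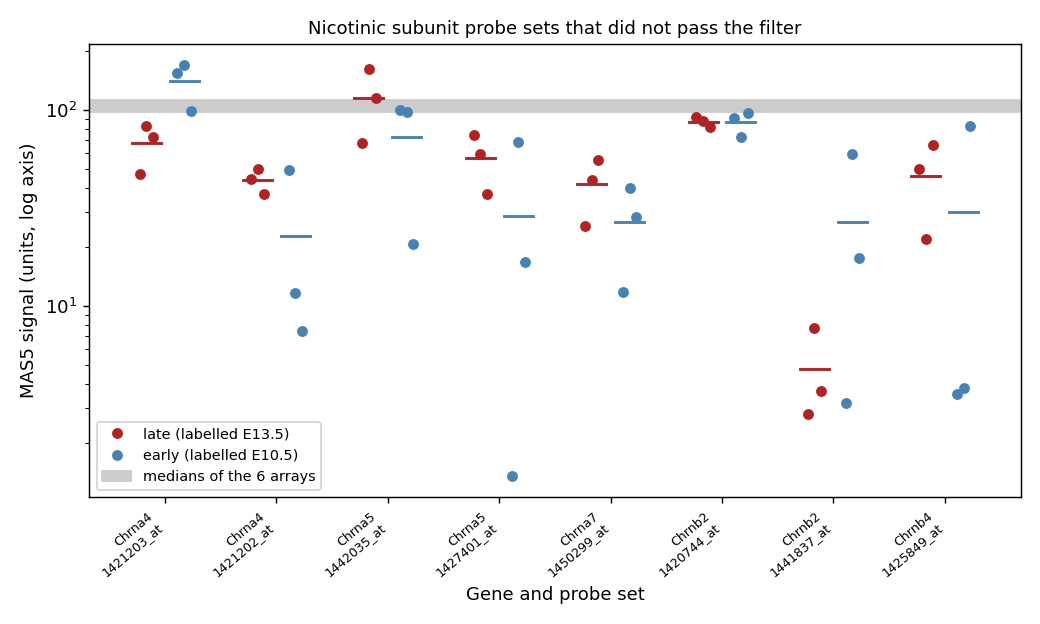
MAS5 signals (units, log axis) of the 8 nicotinic probe sets that were not tested, drawn in the same way. Except for 2 late arrays of Chrna5 1442035_at and 2 early arrays of Chrna4 1421203_at, all lie at or below the band of array medians.

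**Figure D4:**
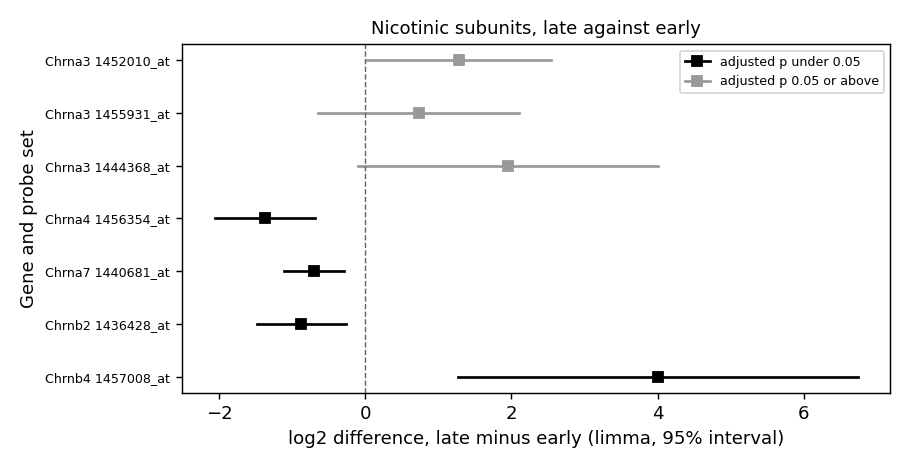
Difference in log2 signal, late minus early, of the 7 tested member probe sets (squares, limma estimate; lines, 95% interval not adjusted for multiple tests), black where the adjusted p is under 0.05. Chrnb4 (4.01) is the only black square to the right of 0, and Chrna4 (-1.37), Chrnb2 (-0.87) and Chrna7 (-0.69) lie to its left.

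Most probe sets of other receptor genes for acetylcholine lay below the array medians. Of 14 probe sets of 9 other nicotinic subunits, 13 lay below the median of all 6 arrays and none was tested. The exception was Chrnb1, a muscle subunit, above the median in 1 late array. Of 4 probe sets of 3 muscarinic receptors 3 lay below the median of all arrays and none was tested. The probe set 1439611_at of Chrm1, the G protein-coupled M1 receptor, stood at 77.2, 63.0 and 89.7 units in the late and 151, 132.5 and 105 units in the early arrays. All its early values lay above all late ones, and groups did not overlap, in either direction, in 31.7% of all probe sets, tested or not.

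Of 54 other cholinergic genes 49 had probe sets, and 30 probe sets of 19 genes were tested, of which 8 passed, 3 toward the late and 5 toward the early group. This share is close to the background of 26.0% of all tested probe sets. Their median difference was 0.35 on the log2 scale, against 0.09 over all tested probe sets. In the list of assembly proteins and Ly6-type modulators, 1 of 13 tested probe sets passed toward the late and 5 toward the early group, against backgrounds of 12.55% toward the late and 13.45% toward the early group. Tmem35a, also called NACHO, a chaperone needed to assemble Chrna7 receptors, stood at 368, 394 and 408 units in the late and 1334, 1291 and 1506 units in the early arrays. The groups were far apart relative to their spread, 3.53-fold higher in the early group (-1.82 ± 0.17 on the log2 scale, limma adjusted p = 0.00181). This call held in all 17 alternatives, with adjusted p between 1.95e-04 and 0.0384. Ly6h, a Ly6 protein that limits surface Chrna7 receptors, stood at 338, 463 and 366 units in the late and 1700, 1264 and 1610 units in the early arrays, 3.92-fold higher in the early group (adjusted p = 0.00258). Lypd1, a prototoxin that binds nicotinic receptors, stood at 117, 170 and 64.8 units in the late and 417, 476 and 614 units in the early arrays, 4.56-fold higher in the early group (adjusted p = 0.0102). All 3 early arrays lay clearly above the late ones in both genes. Lypd6b, a relative that modulates these receptors, was 3.38-fold higher in the early group (adjusted p = 0.0197), and this call ended without late replicate 2 or 3 (0.0725 and 0.0767) and without a filter (0.0728). The other calls of this list, named after their values were seen, were Dok7, an activator of the muscle kinase MuSK, 2.19-fold higher in the early group (adjusted p = 0.0259), and Ly6e, a GPI-anchored Ly6 protein, 2.75-fold higher in the late group (adjusted p = 0.00553), while a second Ly6e probe set did not pass (0.128). The call of Dok7 was lost without late replicate 1, 2 or 3 (0.0873, 0.0921 and 0.0766) or early replicate 1 (0.0554) and without a filter (0.101). Without late replicate 3 and early replicate 3 together, the adjusted p of Ly6h, Lypd1, Lypd6b, Dok7 and Ly6e was 0.0507, 0.0566, 0.149, 0.115 and 0.0678. Lynx1 and Lypd6 of this list, also named after their values were seen, did not pass. Both tested Lynx1 probe sets had higher late means (1.24 and 1.31 on the log2 scale, limma adjusted p = 0.0647 and 0.0834). The tested Lypd6 probe sets went either way (0.71 and -0.27, adjusted p = 0.277 and 0.469).

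Bche, butyrylcholinesterase, which also hydrolyses acetylcholine, had 1 tested probe set (1436098_at) at 165, 328.5 and 221 units in the late and 107, 56.6 and 54.9 units in the early arrays. It was 3.30-fold higher in the late group (1.72 ± 0.37 on the log2 scale, limma adjusted p = 0.0208), the opposite order to the signals of Ache. All late arrays and none of the early arrays lay above the median, so it was tested only through the late arrays and its call is in part built into the filter. With the floor at the array median the difference was 1.09 on the log2 scale (adjusted p = 0.0186). The call was lost without late replicate 2 or 3 (adjusted p = 0.0673 and 0.0716), without early replicate 3 (0.0528), without a filter (0.0755) and without late replicate 3 and early replicate 3 together (0.144). Among 16 tested probe sets for choline uptake and phosphatidylcholine synthesis, 1 passed, a smaller share than the 26.0% of all tested probe sets. Chpt1, a cholinephosphotransferase, was 2.73-fold higher in the late group, at 162, 259 and 223 units in the late and 60.9, 76.1 and 99.1 units in the early arrays (adjusted p = 0.0133). This probe set too was tested only through the late arrays, with 0 early arrays above the median, and with the floor at the array median the difference was 0.97 on the log2 scale (adjusted p = 0.0137). Its other 2 tested probe sets did not pass, and the call ended without late replicate 2 or 3 (0.0532 and 0.059), without a filter (0.0607) and without late replicate 3 and early replicate 3 together (0.0734).

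None of the 16 probe sets for transcription factors of cholinergic neurons was tested, and 11 lay below the median of all arrays. Isl1, a LIM homeodomain factor of motor and forebrain cholinergic neurons, varied within the early group. Its probe set 1450723_at stood at 31.5, 3.62 and 4.03 units in the late and 149.5, 197 and 1.89 units in the early arrays, and 1422720_at had the same order in the early group, at 104, 110 and 4.40 units. Early replicates 1 and 2 were thus the brightest arrays for Isl1, and early replicate 3 the dimmest. Of 6 motor neuron markers 5 had probe sets and none was tested. Their summed signal was 177 to 248 units in the late and 222 to 453 units in the early arrays, so the groups overlapped. Mnx1 and Phox2a lay below the median of all arrays, and Lhx3 is not among these markers. The sum is given beside Chat and Slc18a3, whose mean signals were higher in the early group, and its part in them was not tested.

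**Figure D5:**
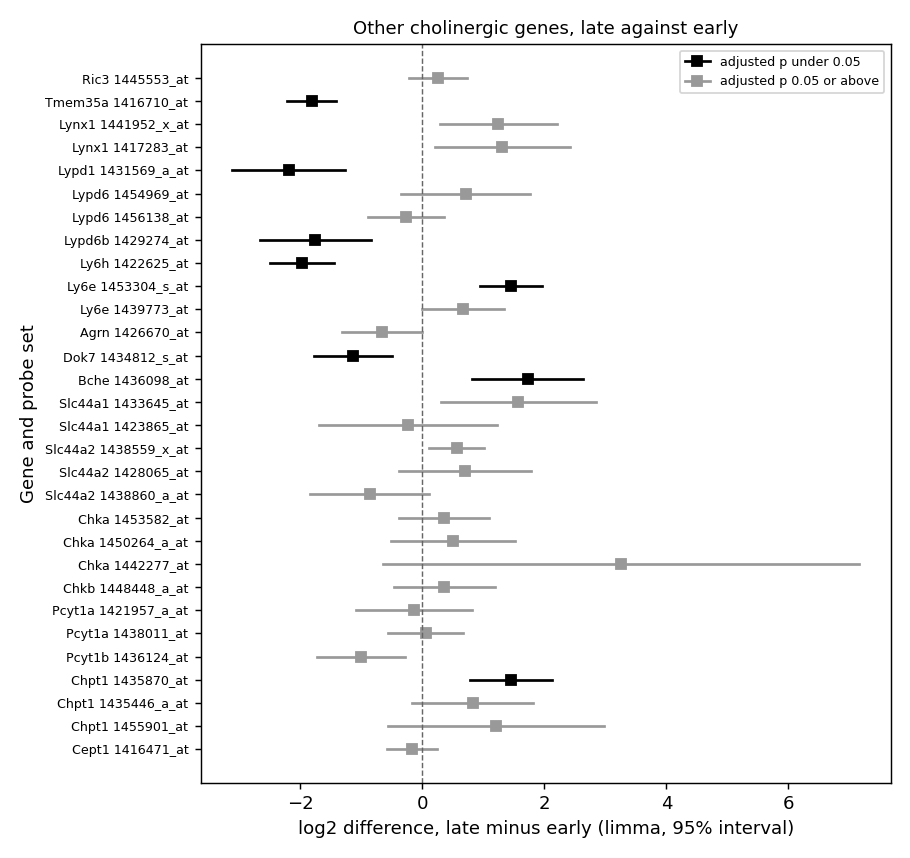
Difference in log2 signal, late minus early, of the 30 tested probe sets of other cholinergic genes (squares, limma estimate; lines, 95% interval not adjusted for multiple tests), black where the adjusted p is under 0.05. Tmem35a, Lypd1, Lypd6b, Ly6h and Dok7 lie to the left of 0, and Ly6e, Bche and Chpt1 to the right.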

How the data were processed

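The authors deposited MAS5 signal intensities on a linear scale; the name MAS5 comes from the submitters' processing notes, and its version is not given in the sources used here. The numbers show that every array was scaled to a mean of 500 after trimming 2% at either end, so changes in total RNA per cell cannot be read. Genes were named from the platform annotation: 34958 probe sets named 1 symbol, 932 several and 9211 none.

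Differences in log2 signal over all 6 arrays were tested in R 4.3.3 with lmFit and eBayes of limma 3.58.1, late minus early, two-sided, with Benjamini-Hochberg adjustment over the 23471 probe sets above their array's median in at least 3 arrays; the 64 controls were left out. The threshold was 0.05. Folds are 2 to the power of the absolute log2 difference. With 3 arrays a group, their number limits the precision. Fits without 1 array kept the same probe sets. Members, lists and tests were chosen with earlier results of these data known. All members' probe sets were named, and from other lists up to 4 genes past the threshold by largest difference. The alternatives tried were quantile normalization, centring, an offset, a floor at the array median, a block for the replicate number, other filters, trend and robust eBayes, array weights, and each array left out. The filter at 2 arrays and the joint removal of late and early replicate 3 were added after the data were seen.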

Additional observations from a re-analysis of the deposited data

How the results depend on the processing

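Over the 17 alternatives, no tested member probe set and no other called cholinergic probe set changed direction. The 4 member calls became 0 with the replicate number as a block, 2 with centring on the array median, 2 with trend and robust eBayes, 1 without a filter (that of Ache), 1 with a filter at the 70th percentile, where 3 member probe sets were tested, and 1 without late replicate 3 and early replicate 3. Without single arrays they ranged from 0 to 5, with 0 calls without late replicate 1, 2 or 3, where 4 member probe sets had an unadjusted limma p under 0.05. Under the block, with 0 calls, 5 had one, and the adjusted p of Chrna4, Chrna7, Chrnb2 and Chrnb4 was 0.0521, 0.103, 0.0693 and 0.0796 in limma. The block also ended the calls of Lypd6b (0.0634) and Bche (0.0681). The 8 calls among other cholinergic genes became 13 with the floor at the array median, 13 with trend and robust eBayes, 5 without a filter and 1 without late replicate 3 and early replicate 3, and 4 to 12 without single arrays. The 5 without a filter included Lhx3 (1425041_at), which was higher in the late group and was not in the main test. Over all probe sets 6104 passed, against 3593 with the block, 2719 without a filter, 1504 without late replicate 3 and early replicate 3, and 2942 to 5849 without single arrays. Deviations of same-numbered arrays from their group means correlated at -0.029, -0.075 and -0.0056. These values gave no sign of pairing by number, but with 3 arrays a group a weak shared effect could be missed. Fits with fewer arrays have fewer degrees of freedom. Signals near the bottom of the MAS5 scale limit the precision for Ache and Chrnb4.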
